A study of Mus musculus with 48 samples.

Results

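Potassium channel genes of the mouse heart were followed across 4 kinds of sample. They were all genes whose symbol starts with Kcn, the prefix for pore-forming and auxiliary subunits of potassium channels, without the long non-coding RNA Kcnq1ot1. The prefix was carried by 94 of the 31920 genes in the ventricle tables, and 62 of these had at least 10 reads in 3 or more libraries of at least 1 table. Of the 62 genes, 54 were kept at 8 weeks, 59 at 20 weeks and 58 in the cell fractions, and 52 were kept in every table. The 32 genes kept in no table had between 0 and 15 reads in their richest library. By symbol, the 94 genes fell into 30 voltage-gated pore subunits (Kcna, Kcnb, Kcnc, Kcnd, Kcnh and Kcnq), 10 silent voltage-gated subunits (Kcnf, Kcng, Kcns and Kcnv), 16 auxiliary subunits (Kcnab, Kcne, Kcnip and Kcnmb), 15 inward rectifiers (Kcnj), 14 two-pore-domain channels (Kcnk), 8 calcium- and sodium-activated channels (Kcnma, Kcnn, Kcnt and Kcnu) and Kcnrg, a channel regulator.

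RNA was sequenced from hearts of FVB mice that carried the phospholamban mutation PLNR9C, which leads to dilated cardiomyopathy, or were wild type. Mice of each genotype had received JQ1, an inhibitor of BET bromodomain proteins, at 50 mg/kg, or vehicle. Left ventricles were taken at 8 weeks, before dilated cardiomyopathy per the labels, and at 20 weeks, and cardiomyocytes and non-myocytes were pooled at 16 weeks. Each of the 4 kinds of sample held PLNR9C JQ1, PLNR9C vehicle, wild type JQ1 and wild type vehicle libraries, with 3 biological replicates per group, which gave 16 groups and 48 libraries. Neither the number of animals in a pool nor the promoter that drives the mutant allele is stated in the material used here.

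Potassium channels let potassium leave the cell and so return the membrane to its resting voltage after each beat. In the mouse ventricle the voltage-gated Kv channels and their auxiliary subunits carry the fast outward currents of repolarisation, inward rectifiers hold the resting potential, two-pore-domain channels carry leak currents, and calcium-activated channels are best known from smooth muscle, nerve and blood cells. Silent subunits form no channel alone and change the behaviour of the Kv channels they join. A fall of outward current channels is a known feature of failing hearts and prolongs the action potential.

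Gene reads per library ran from 16984138 to 27086694 in the 8-week and from 18415351 to 26730918 in the 20-week ventricles. The cardiomyocyte pools had between 10249780 and 13146653 gene reads and the non-myocyte pools between 10041094 and 11815003. Levels of single genes are given as CPM, the counts scaled by normalised library size, and levels are compared between genes as RPKM, which also divides by gene length. A gene is said to have risen or fallen where edgeR's quasi-likelihood test gave a Benjamini-Hochberg adjusted p under 0.05 over all genes tested, and values after ± are SE for log2 fold changes and SD (n = 3) for levels. The summed CPM of 8 cardiomyocyte markers (Myh6, Actc1, Tnnt2, Tnni3, Ryr2, Ttn, Myl2 and Mb) lay between 48786 and 103274 in the cardiomyocyte pools and between 1297 and 9463 in the non-myocyte pools. One PLNR9C JQ1 cardiomyocyte library, replicate 2, stood apart with the lowest cardiomyocyte sum of that fraction and with 2321 CPM of 6 fibroblast markers, against 717 and 1321 CPM in its companions. The wild type JQ1 non-myocytes held more cardiomyocyte marker RNA (7489 to 9463 CPM) than the wild type vehicle non-myocytes (2839 to 4344 CPM). Whether reads were counted by strand is not given, so reads of genes that overlap another gene in the GENCODE M21 annotation, among them Kcnq1 (Kcnq1ot1), Kcnd3 (Kcnd3os), Kcnj3, Kcnj6, Kcng2, Kcnk2, Kcnj15, Kcnma1 and Kcnk1, cannot be told apart from those of the overlapping gene.

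In the wild type ventricle a few genes held most of the potassium channel RNA. At 8 weeks, Kcnk3, the acid-sensitive leak channel, had 141 ± 1.30 RPKM and Kcnip2, the cytosolic partner of the Kv channels that carry the transient outward current, had 129 ± 6.70 RPKM in wild type vehicle mice. The silent subunit Kcng2 followed with 64.4 ± 3.94 RPKM, and Kcnj11, the pore of the ATP-sensitive channel of cardiomyocytes, with 63.2 ± 1.45 RPKM. These 4 genes made up 68.3% of the summed RPKM of all 62 genes at 8 weeks, 68.4% at 20 weeks and 73.9% in cardiomyocytes. Kcng2 and Kcnj11 did not differ beyond their spread at 8 weeks, nor did Kcnk3 (130 ± 3.42 RPKM) and Kcnip2 (131 ± 13.8 RPKM) at 20 weeks. The next levels at 8 weeks were those of Kcnj5 (26.4 RPKM), a pore subunit of the acetylcholine-activated channel, and Kcnh2 (22.3 RPKM), the pore of the rapid delayed rectifier. In wild type vehicle non-myocytes the order was another one, with Kcnj8, the ATP-sensitive pore subunit known from vascular smooth muscle and pericytes, at 58.7 ± 11.5 RPKM and the voltage-gated pore subunit Kcna5 at 51.5 ± 11.8 RPKM. The spreads of these 2 genes overlapped, and together they made up 48% of the non-myocyte sum.

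Of 57 genes tested between the fractions, 24 were higher in cardiomyocytes and 33 were higher in non-myocytes, where 89.4% of all genes tested were called (41.9% higher and 47.5% lower). The median log2 difference, cardiomyocytes over non-myocytes, was -1.64 over the 57 genes and -0.12 over all genes. The inward rectifiers lay mostly on the cardiomyocyte side, with 8 of 11 tested genes higher there and a median of 4.43. Kcnj3, a pore subunit of the acetylcholine-activated channel, had the highest log2 difference among all 57 (5.70 ± 0.26), followed by Kcnk3 (5.39 ± 0.13), Kcng2 (5.28 ± 0.10), Kcnj11 (5.27 ± 0.12) and Kcnip2 (5.18 ± 0.15). Of 17 genes of the cardiac repolarising currents, 16 were tested, 14 were higher in cardiomyocytes and 2, Kcna5 (-1.64 ± 0.17) and Kcnj8 (-1.88 ± 0.14), were higher in non-myocytes. Among the two-pore-domain channels 1 of 6 tested genes, Kcnk3, was higher in cardiomyocytes, and Kcnk13 (-3.46 ± 0.25) and the stretch-sensitive leak channel Kcnk2 (-3.44 ± 0.19) were among the lowest. The auxiliary subunits split into Kcnip2 and Kcne1 on the cardiomyocyte side and 7 genes on the other, among them Kcnab2 (-3.28 ± 0.17) and Kcne4 (-2.15 ± 0.17). Of the calcium- and sodium-activated channels, Kcnn1 and Kcnn2 were higher in cardiomyocytes and 5 genes were higher in non-myocytes, with Kcnt2 (-3.13 ± 0.18), Kcnn3 (-3.06 ± 0.18) and Kcnn4 (-2.62 ± 0.43) at the low end. Of these 57 calls 55 held in every alternative, and those of Kcnip4 (adjusted p = 0.67 in edgeR) and Kcnk7 (edgeR adjusted p = 0.061) were lost when the wild type vehicle pools alone were compared.

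**Figure D1:**
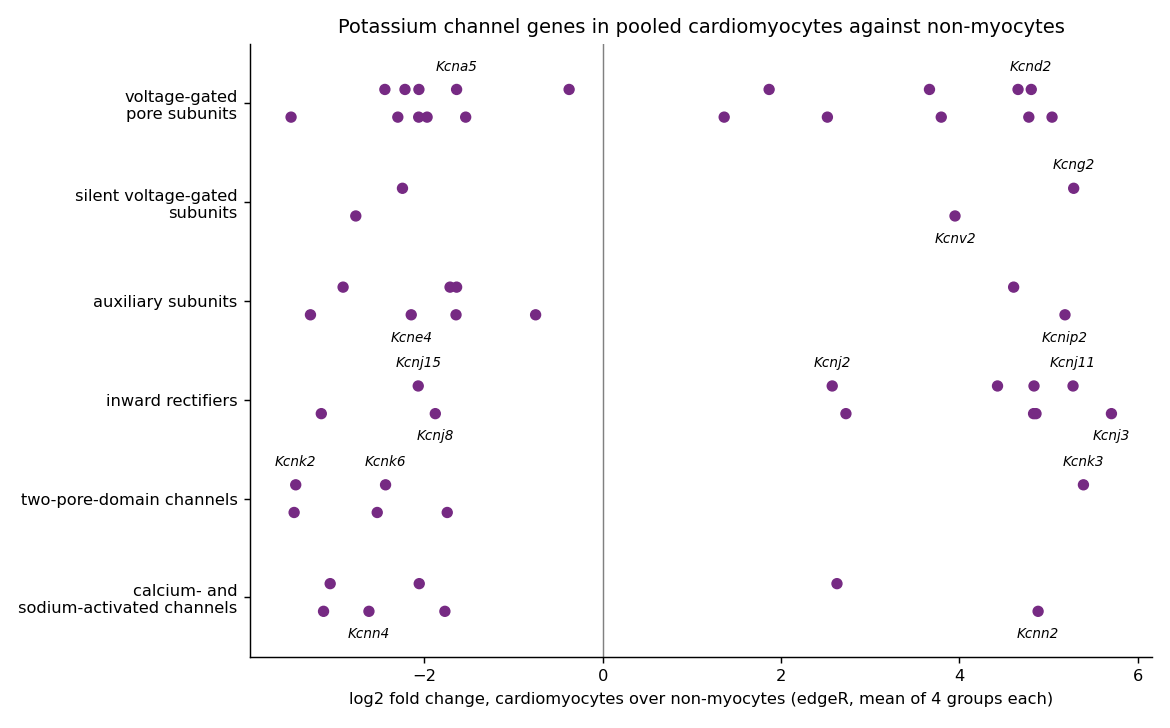
Log2 fold change of 56 potassium channel genes in pooled cardiomyocytes over pooled non-myocytes at 16 weeks (x axis), in rows by class, with selected genes named. Every point is a gene that passed the test, and the inward rectifiers lie mostly right of 0 while the two-pore-domain channels lie left of it except Kcnk3.

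At 20 weeks the outward current genes of the PLNR9C ventricle were low. Of 58 genes tested, 13 rose and 22 fell in PLNR9C vehicle against wild type vehicle hearts, where 44.7% of all genes tested were called (23.3% higher and 21.4% lower). The median log2 fold change was -0.30 over the 58 genes and 0.01 over all genes. In the list of 17 repolarising current genes none rose and 15 fell, with a median of -0.81. The remaining 2 were Kcna5 (23.5, 23.8 and 18.9 CPM in PLNR9C vehicle hearts and 37.5, 22.5 and 22.7 CPM in wild type vehicle hearts) and Kcna4, both without a call. Among genes that were higher in cardiomyocytes than in non-myocytes, 3 of 24 rose and 17 fell (median -0.62), and among genes higher in non-myocytes 10 of 31 rose and 4 fell (median 0.24). The same split was not made over all genes, so whether it is particular to channel genes cannot be told. The cardiomyocyte markers moved too: 7 of 8 fell with a median of -0.92, and their sum was 40207 to 45443 CPM in PLNR9C vehicle hearts, against 73771 to 84943 CPM in wild type vehicle hearts. The sums of 6 fibroblast markers (2828 to 3265 CPM against 858 to 1049 CPM) and 6 macrophage markers (567 to 775 CPM against 184 to 195 CPM) were higher in PLNR9C vehicle hearts, with all 6 tested genes of each list called. No cardiomyocyte, fibroblast or macrophage marker was at 0, and the part of these shifts in the channel results was not tested. In whole ventricle, fewer cells of a type and less RNA per cell cannot be told apart.

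Kcnv2 (chr19:27322619-27337179, plus strand, GRCm38), a silent subunit, had the lowest log2 fold change. It had 2.25, 1.65 and 1.70 CPM in PLNR9C vehicle hearts at 20 weeks, against 53.6, 52.7 and 40.7 CPM in wild type vehicle hearts. The log2 fold change was -4.69 ± 0.18 (edgeR adjusted p = 1.7e-11), and no library of one genotype came near those of the other. Kcng2, the silent subunit with 63.2 RPKM in wild type vehicle hearts, had 137, 146 and 145 CPM in PLNR9C vehicle hearts and 207, 176 and 184 CPM in wild type vehicle hearts, a log2 fold change of -0.41 ± 0.08 (edgeR adjusted p = 0.0005).

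Of the voltage-gated pore subunits 2 of 19 rose and 9 fell. Kcnd2, a pore subunit of the transient outward current, had 16.2, 22.7 and 21.2 CPM in PLNR9C vehicle hearts and 44.0, 36.0 and 44.3 CPM in wild type vehicle hearts, without overlap (-1.05 ± 0.13, edgeR adjusted p = 5.6e-06). Its relative Kcnd3 fell less, by 0.52 ± 0.12 on the log2 scale (edgeR adjusted p = 0.0014). Kcnh2 had 60.4, 66.8 and 58.3 CPM in PLNR9C vehicle hearts and 120, 109 and 98.2 CPM in wild type vehicle hearts (-0.81 ± 0.11, edgeR adjusted p = 1.9e-05). Kcnq1, the pore of the slow delayed rectifier, also fell (-0.63 ± 0.11, edgeR adjusted p = 0.00012). A further Kv gene that fell was Kcnc4 (-2.56 ± 0.74, edgeR adjusted p = 0.01), which had at most 1.30 CPM in any 20-week library. The risers were Kcnd1, at 2.61, 2.07 and 1.56 CPM in PLNR9C vehicle hearts against 0.693, 0.400 and 1.17 CPM in wild type vehicle hearts (1.49 ± 0.34, edgeR adjusted p = 0.0017), and Kcnq5 (1.2 ± 0.28, edgeR adjusted p = 0.0021).

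The inward rectifiers went both ways, with 2 of 11 higher and 6 lower in PLNR9C vehicle hearts. Kcnj3 (chr2:55436781-55595525, plus strand) had 4.96, 5.6 and 4.57 CPM in PLNR9C vehicle hearts and 27.3, 24.3 and 20.5 CPM in wild type vehicle hearts (-2.25 ± 0.16, edgeR adjusted p = 6.9e-09). Its partner Kcnj5 had 61.1, 56.8 and 51.9 CPM in PLNR9C vehicle hearts and 146, 114 and 92.9 CPM in wild type vehicle hearts (-1.06 ± 0.14, edgeR adjusted p = 4e-05). Both genes are known from the atrium, where vagal acetylcholine opens their channel, and 4 atrial markers (Sln, Myl7, Myl4 and Bmp10) together reached 1.37 to 1.75 CPM in PLNR9C vehicle and 0.710 to 0.866 CPM in wild type vehicle ventricles at 20 weeks. Kcnj2, the main pore of the resting inward rectifier current, had 24.8, 30.8 and 27 CPM in PLNR9C vehicle hearts and 51.4, 66.8 and 74.8 CPM in wild type vehicle hearts (-1.22 ± 0.13, edgeR adjusted p = 2.5e-06). Of the ATP-sensitive pores, Kcnj11 had 110, 126 and 112 CPM in PLNR9C vehicle hearts and 222, 191 and 197 CPM in wild type vehicle hearts (-0.81 ± 0.08, edgeR adjusted p = 2.4e-07), and Kcnj8 fell by 0.88 ± 0.13 on the log2 scale (edgeR adjusted p = 2e-05). Kcnj12, which shares the resting current with Kcnj2, fell by 0.62 ± 0.13 (edgeR adjusted p = 0.0012).

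Against these 6 genes, 2 inward rectifiers of low level rose. Kcnj6 (chr16:94748683-94997696, minus strand), a relative of Kcnj3 known from neurons, had 7.04, 7.02 and 10.2 CPM in PLNR9C vehicle hearts and 0.216, 0.355 and 0.659 CPM in wild type vehicle hearts at 20 weeks (4.32 ± 0.45, edgeR adjusted p = 3.1e-06). Kcnj14 had 5.6, 6.56 and 8.85 CPM in PLNR9C vehicle hearts and 1.30, 0.933 and 1.42 CPM in wild type vehicle hearts (2.52 ± 0.25, edgeR adjusted p = 2e-07). Both genes were higher in the cardiomyocyte than in the non-myocyte fraction, by 4.86 ± 0.33 and 2.73 ± 0.35 on the log2 scale. Kcnj6 thus moved opposite to Kcnj3 and Kcnj5, the genes whose products form the cardiac channel of that family.

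Of the two-pore-domain channels 2 of 7 rose and 2 fell. Kcnk3, the gene of highest RPKM in wild type hearts beside Kcnip2, had 310, 324 and 334 CPM in PLNR9C vehicle hearts and 551, 511 and 521 CPM in wild type vehicle hearts (-0.71 ± 0.09, edgeR adjusted p = 4.8e-06). Kcnk1, which reached 10 reads in wild type libraries only, fell by 3.00 ± 0.63 (edgeR adjusted p = 0.00082) at a low level, with 0.067, 0.275 and 0.0486 CPM in PLNR9C vehicle hearts and 1.08, 0.933 and 1.12 CPM in wild type vehicle hearts. The risers were Kcnk6 (0.59 ± 0.14, edgeR adjusted p = 0.002) and Kcnk13, a channel known from microglia and other macrophages (1.24 ± 0.37, edgeR adjusted p = 0.011). Of the calcium- and sodium-activated channels 4 of 7 rose and 1 fell. Kcnma1, the large-conductance calcium-activated channel, reached 10 reads in PLNR9C libraries only, with at most 8 reads in wild type libraries, so it passed the filter through the genotype where it is high. It had 1.24, 1.51 and 0.632 CPM in PLNR9C vehicle hearts and 0.0433, 0.267 and 0.304 CPM in wild type vehicle hearts (2.47 ± 0.54, edgeR adjusted p = 0.0011). Kcnn3, a small-conductance channel, had 8.21, 3.49 and 5.30 CPM in PLNR9C vehicle hearts and 1.47, 1.56 and 2.13 CPM in wild type vehicle hearts (1.74 ± 0.30, edgeR adjusted p = 0.00016). Kcnn4, the intermediate-conductance channel of immune cells and fibroblasts, rose by 1.21 ± 0.40 (edgeR adjusted p = 0.021).

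Of the auxiliary subunits 3 of 10 rose and 2 fell. Kcne4, a membrane subunit that dampens several Kv channels, had 12.6, 12.6 and 8.90 CPM in PLNR9C vehicle hearts and 3.07, 2.58 and 3.14 CPM in wild type vehicle hearts (1.96 ± 0.17, edgeR adjusted p = 5.1e-08). Kcnab2, a cytosolic partner of Kcna channels, had 5.56, 3.17 and 3.94 CPM in PLNR9C vehicle hearts and 2.34, 1.87 and 1.52 CPM in wild type vehicle hearts (1.15 ± 0.24, edgeR adjusted p = 0.00084). Kcnip2 had 64.2, 88.0 and 91.6 CPM in PLNR9C vehicle hearts and 120, 119 and 140 CPM in wild type vehicle hearts (-0.64 ± 0.22, edgeR adjusted p = 0.039). The groups did not overlap for any of these 3 genes. Kcne1, the partner of Kcnq1, was called lower (-1.46 ± 0.55, edgeR adjusted p = 0.039) at levels of at most 1.22 CPM. Of the 35 calls at 20 weeks, 28 held in every alternative. The exceptions named here were Kcnip2 (highest edgeR adjusted p 0.12, lost without any 1 of 5 libraries), Kcne1 (0.15), Kcnn4 (0.074) and Kcnk13 (0.066).

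**Figure D2:**
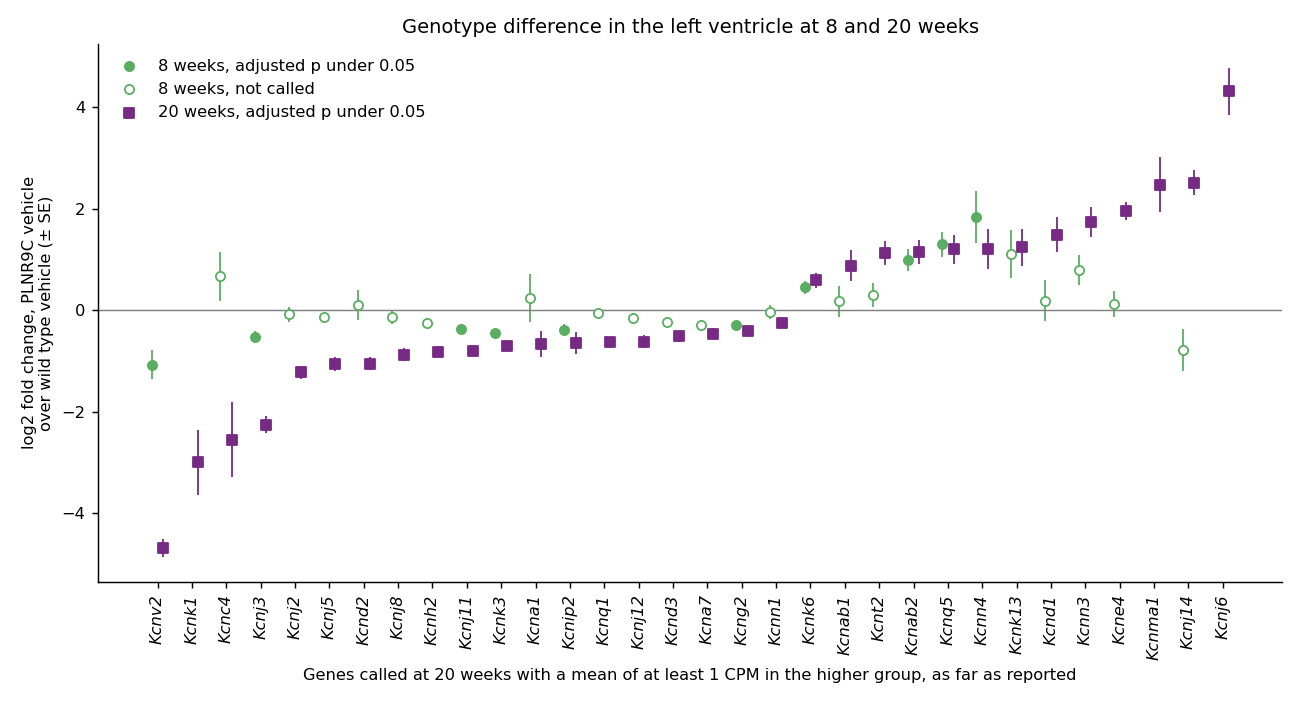
Log2 fold change with its SE, PLNR9C vehicle over wild type vehicle, at 8 weeks (circles) and 20 weeks (squares) for genes called at 20 weeks whose higher group averaged 1 CPM or more, as far as they are reported here, ordered by the 20-week value. Kcnv2 lies lowest at -4.69 and Kcnj6 highest at 4.32, most circles lie nearer 0 than their squares, and Kcnk1, Kcnma1 and Kcnj6 have no circle because they were not tested at 8 weeks.

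At 8 weeks fewer genes differed between the genotypes. Of 54 genes tested 5 rose and 6 fell in PLNR9C vehicle against wild type vehicle hearts, where 14.4% of all genes tested were called (7.86% higher and 6.50% lower), and 5 of 17 repolarising current genes fell. The largest fall was again that of Kcnv2, with 16.3, 16.3 and 26.8 CPM in PLNR9C vehicle hearts and 45.0, 41.3 and 37.7 CPM in wild type vehicle hearts (-1.07 ± 0.28, edgeR adjusted p = 0.036). Kcnk3 had 365, 363 and 464 CPM in PLNR9C vehicle hearts and 565, 531 and 537 CPM in wild type vehicle hearts (-0.45 ± 0.08, edgeR adjusted p = 0.0006). Kcnj3 (-0.52 ± 0.11), Kcnip2 (-0.38 ± 0.11), Kcnj11 (-0.36 ± 0.07) and Kcng2 (-0.30 ± 0.07) were the other genes that fell. Among the risers were Kcnn4, at 0.961, 0.786 and 1.27 CPM in PLNR9C vehicle hearts against 0.235, 0.504 and 0.0497 CPM in wild type vehicle hearts (1.84 ± 0.52, edgeR adjusted p = 0.021), Kcnq5 (1.30 ± 0.25), Kcnab2 (0.99 ± 0.22) and Kcnk6 (0.45 ± 0.13). Of the 11 genes 10 moved in the same direction with a call at 20 weeks, which are 10 of the 32 genes called at 20 weeks among those tested at both ages, and the 2 ages share no library. How many of all genes were called alike at both ages was not counted. The 8 cardiomyocyte markers summed to 58705 to 63916 CPM in PLNR9C vehicle hearts and 73509 to 77976 CPM in wild type vehicle hearts, with 4 of 8 called lower. The fibroblast markers summed to 1183 to 1367 CPM in PLNR9C vehicle and 844 to 1019 CPM in wild type vehicle hearts, with 5 of 6 called higher, and the macrophage markers to 434 to 484 CPM in PLNR9C vehicle and 157 to 200 CPM in wild type vehicle hearts, with 6 of 6 tested called higher. The part of these shifts was not tested. The calls of Kcnab2, Kcnj11, Kcnj3, Kcnk3 and Kcnq5 held in every alternative. That of Kcnv2 was lost without any 1 of 5 libraries (edgeR adjusted p up to 0.13). Without PLNR9C vehicle replicate 2 or wild type vehicle replicate 1 the count of 11 became 7 or 6.

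The change of the genotype difference with age was tested directly. It differed in 16 of 60 genes, with 4 higher and 12 lower at 20 weeks than at 8 weeks, where 15.5% of all genes tested were called (7.03% higher and 8.51% lower). Kcnv2 had the lowest value (-3.61 ± 0.38, edgeR adjusted p = 3.8e-06), and Kcnj3 (-1.73 ± 0.20, edgeR adjusted p = 6.1e-07), Kcnj2 (-1.14 ± 0.22), Kcnj5 (-0.91 ± 0.17), Kcnj8 (-0.74 ± 0.19), Kcnq1 (-0.57 ± 0.14) and Kcnj11 (-0.44 ± 0.11) were lower as well. Kcnj2, for example, had 68.3, 62.4 and 71.3 CPM in PLNR9C vehicle hearts and 67.3, 75.1 and 71.0 CPM in wild type vehicle hearts at 8 weeks, a difference without a call. In the other direction stood Kcnj14 (3.31 ± 0.47, edgeR adjusted p = 1.4e-05), Kcnma1 (3.77 ± 0.84), Kcne4 (1.84 ± 0.31, edgeR adjusted p = 0.00011) and Kcnj6 (4.32 ± 1.10, edgeR adjusted p = 0.0082). The 8-week levels of Kcnj6 (at most 0.387 CPM) and Kcnma1 (at most 0.192 CPM) in PLNR9C vehicle hearts and the 8-week level of Kcne4 (2.38, 4.81 and 3.65 CPM in PLNR9C vehicle hearts, 3.52, 3.78 and 2.54 CPM in wild type vehicle hearts) showed no rise. Neither Kcnj6 nor Kcnma1 had 10 reads in 3 libraries at 8 weeks, and the difference of Kcnma1 rests on the genotype that carried it past the filter. Without wild type vehicle replicate 3 at 8 weeks the call of Kcnj6 was lost (edgeR adjusted p = 0.14), and those of Kcnd2, Kcnh2 and Kcnt1 were lost without any 1 of 5 or 6 libraries.

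In the pooled cardiomyocytes of PLNR9C vehicle mice 5 of 43 genes rose and 10 fell, where 26.1% of all genes tested were called (14.3% higher and 11.8% lower). Of the repolarising current genes 9 of 16 fell and none rose, with a median of -0.65. In the same pools 3 of 8 cardiomyocyte markers fell (median -0.44), with sums of 59930 to 69071 CPM in PLNR9C vehicle and 85219 to 93712 CPM in wild type vehicle cardiomyocytes. Of 6 fibroblast markers 5 rose (median 1.42), with sums of 613 to 921 CPM in PLNR9C vehicle and 156 to 211 CPM in wild type vehicle cardiomyocytes. Kcnv2 had 2.97, 7.04 and 3.65 CPM in PLNR9C vehicle cardiomyocytes and 40.2, 36.9 and 31.4 CPM in wild type vehicle cardiomyocytes (-2.97 ± 0.35, edgeR adjusted p = 0.00016). Kcnj3 had 3.73, 3.02 and 4.52 CPM in PLNR9C vehicle cardiomyocytes and 16.6, 14.8 and 14.5 CPM in wild type vehicle cardiomyocytes (-2.03 ± 0.24, edgeR adjusted p = 0.0001). Both pairs of groups were far apart, as in the 20-week ventricle. Kcnj11 had 119, 132 and 95.7 CPM in PLNR9C vehicle and 216, 209 and 217 CPM in wild type vehicle cardiomyocytes (-0.89 ± 0.13, edgeR adjusted p = 0.00043). Other genes that fell included Kcnd2 (-0.87 ± 0.23), Kcnh2 (-0.76 ± 0.24), Kcnj5 (-0.61 ± 0.19), Kcnk3 (-0.61 ± 0.18) and Kcnip2 (-0.43 ± 0.14). The risers were Kcnk13 (2.66 ± 0.57), Kcnj6 (2.16 ± 0.37), Kcnab2 (2.09 ± 0.52), Kcnj14 (2.03 ± 0.48) and Kcnq5 (1.53 ± 0.41). Kcnk13 and Kcnab2 are genes of higher level in non-myocytes, and the macrophage markers in this fraction summed to 206 to 263 CPM in PLNR9C vehicle against 33.3 to 44.4 CPM in wild type vehicle cardiomyocytes, with 6 of 6 tested genes called. Both genes reached 10 reads in PLNR9C cardiomyocyte libraries only, so they passed the filter on low counts through the genotype where they are high. The part of these marker shifts was not tested. All 15 genes moved in the same direction with a call in the 20-week ventricle, which are 15 of the 30 genes called there among those tested in both. The share of all genes called alike in both was not counted, so this is not read as particular to channel genes. The calls of Kcnv2, Kcnj3, Kcnj11, Kcnj6, Kcnj14, Kcnab2 and Kcnk13 held in every alternative, and that of Kcnh2 rose to an edgeR adjusted p of 0.15 without wild type vehicle replicate 3.

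In the non-myocytes of PLNR9C vehicle mice 6 of 49 genes rose and 10 fell, where 18.6% of all genes tested were called (10.3% higher and 8.32% lower). Kcnn3 had 24.7, 25 and 24.9 CPM in PLNR9C vehicle non-myocytes and 8.52, 8.30 and 7.38 CPM in wild type vehicle non-myocytes (1.62 ± 0.15, edgeR adjusted p = 1.7e-05). Kcne4 had 45.8, 31.6 and 43.1 CPM in PLNR9C vehicle non-myocytes and 20.9, 17.6 and 14.9 CPM in wild type vehicle non-myocytes (1.17 ± 0.18, edgeR adjusted p = 0.00066). Neither gene overlapped between the groups, and Kcnj10, a potassium buffering channel of glia (1.65 ± 0.36), Kcnn4 (1.51 ± 0.49), Kcnk13 (1.38 ± 0.30) and Kcnab2 (0.73 ± 0.19) rose too. Both genes of highest level fell: Kcnj8 had 57.1, 67.9 and 40.8 CPM in PLNR9C vehicle and 111, 112 and 154 CPM in wild type vehicle non-myocytes (-1.19 ± 0.18, edgeR adjusted p = 0.00066). Kcna5 had 45.3, 70.7 and 78.5 CPM in PLNR9C vehicle and 178, 111 and 147 CPM in wild type vehicle non-myocytes (-1.16 ± 0.25, edgeR adjusted p = 0.0093). Other genes that fell included the Kv pore subunits Kcna1 (-1.79 ± 0.27), Kcna2 (-1.53 ± 0.26), Kcnc2 (-1.25 ± 0.35), Kcna6 (-1.2 ± 0.28) and Kcnh2 (-0.95 ± 0.23) and the auxiliary subunits Kcnmb1 (-1.08 ± 0.24), known from smooth muscle, and Kcnip3 (-0.84 ± 0.24). Markers moved in the same pools: 6 of 8 smooth muscle and pericyte markers fell (median -0.93, 1609 to 1989 CPM in PLNR9C vehicle, 2427 to 2972 CPM in wild type vehicle), 5 of 6 endothelial markers fell and 6 of 6 tested macrophage markers rose. Fibroblast markers summed to 11422 to 13842 CPM in PLNR9C vehicle and 6252 to 6984 CPM in wild type vehicle non-myocytes. For the cardiomyocyte markers the sums were 1847 to 2432 CPM in PLNR9C vehicle and 2839 to 4344 CPM in wild type vehicle non-myocytes. The 7 neuron and Schwann cell markers summed to 8.42 to 10.6 CPM in PLNR9C vehicle and 19.2 to 20.2 CPM in wild type vehicle non-myocytes. Only 3 of these 7 averaged over 1 CPM in either group. The part of all these marker shifts was not tested.

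The genotype difference itself differed between the fractions for Kcnv2 alone of 57 genes (-3.09 ± 0.57, cardiomyocytes minus non-myocytes, edgeR adjusted p = 0.0016), where 8.33% of all genes tested were called (4.09% higher and 4.24% lower). In non-myocytes Kcnv2 had 1.13, 1.09 and 1.89 CPM in PLNR9C vehicle pools and 1.33, 1.78 and 0.772 CPM in wild type vehicle pools, which overlapped. These low levels rest on 13, 12 and 20 reads in PLNR9C vehicle and 15, 21 and 9 reads in wild type vehicle pools. The same pools held 1847 to 2432 CPM and 2839 to 4344 CPM of the cardiomyocyte markers, and the part of cardiomyocyte RNA in the Kcnv2 reads was not tested. Cardiomyocyte and non-myocyte pools of equal replicate number deviated together from their group means, and with the pairs as a block Kcnj2 was called as well (edgeR adjusted p = 0.018), which made 2 genes.

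**Figure D3:**
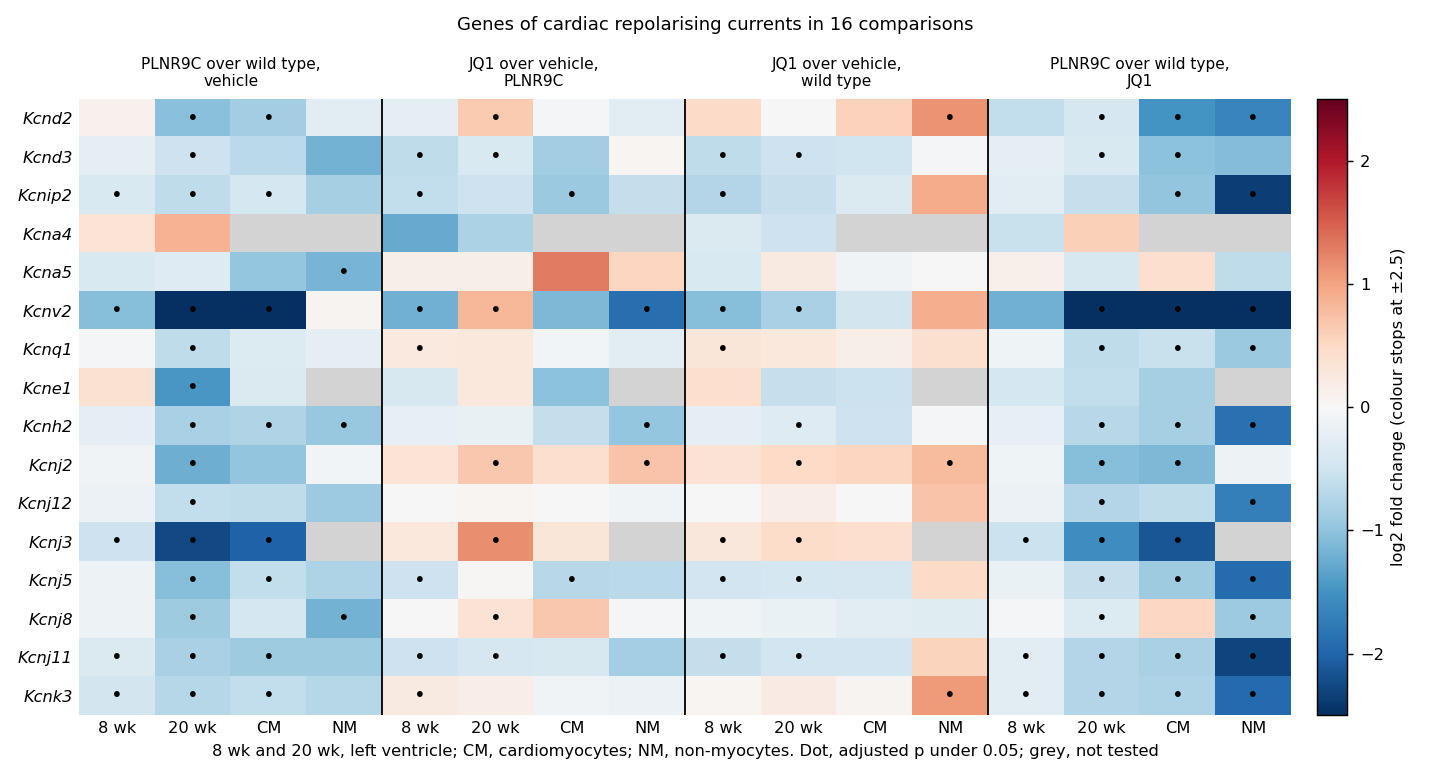
Log2 fold change (colour) of 16 genes of the cardiac repolarising currents in 16 comparisons: PLNR9C over wild type in vehicle mice, JQ1 over vehicle in PLNR9C and in wild type mice, and PLNR9C over wild type in JQ1 mice, each for the ventricle at 8 and 20 weeks, cardiomyocytes (CM) and non-myocytes (NM). Blue with dots fills the 20-week genotype columns, with 14 of the 16 genes shown called lower in vehicle mice and 12 called lower in JQ1 mice.

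With JQ1 the share of potassium channel genes called in either direction lay near that of all genes in the ventricle of both genotypes. At both ages and in both genotypes more of them fell than rose, while over all genes the higher and lower shares were closer together. The set was not tested for this. At 8 weeks 5 of 54 genes rose and 15 fell with JQ1 in PLNR9C hearts, where 33.1% of all genes tested were called (15.5% higher and 17.7% lower). In wild type hearts of that age 4 rose and 12 fell, where 29.8% of all genes tested were called (14.3% higher and 15.4% lower). At 20 weeks 8 of 58 genes rose and 15 fell in PLNR9C hearts, where 31.9% of all genes tested were called (15.9% higher and 16.1% lower). Wild type hearts had 5 that rose and 15 that fell, where 27.2% of all genes tested were called (12.3% higher and 14.9% lower). The 2 genotypes share no library in these comparisons, and at 8 weeks 13 genes were called in both, all in the same direction, which are 13 of the 20 in PLNR9C and of the 16 in wild type hearts. At 20 weeks 12 genes were called in the same direction in both genotypes and Kcnv2 in opposite directions, out of 23 in PLNR9C and 20 in wild type hearts. For neither age were calls shared by the genotypes counted over all genes.

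Kcnk2 (chr1:189207930-189402273, minus strand), a stretch- and lipid-sensitive leak channel, fell with JQ1 in 7 of the 8 comparisons, which cover both genotypes in 4 kinds of sample. At 8 weeks it had 1.91, 1.62 and 1.32 CPM in PLNR9C JQ1 hearts and 5.57, 4.95 and 5.47 CPM in PLNR9C vehicle hearts (-1.71 ± 0.18, edgeR adjusted p = 1.5e-06). At 20 weeks it had 0.594, 1.32 and 1.24 CPM in PLNR9C JQ1 hearts and 6.37, 5.0 and 5.35 CPM in PLNR9C vehicle hearts (-2.41 ± 0.28, edgeR adjusted p = 7.6e-06). Wild type hearts gave -1.5 ± 0.19 at 8 weeks and -1.81 ± 0.28 at 20 weeks, with no overlap of JQ1 and vehicle libraries at either age. In non-myocytes Kcnk2 had 2.81, 3.34 and 4.92 CPM in PLNR9C JQ1 pools and 25.8, 16.2 and 14.6 CPM in PLNR9C vehicle pools (-2.37 ± 0.26, edgeR adjusted p = 2.3e-05), and it fell by 1.76 ± 0.23 in wild type pools. The exception was wild type cardiomyocytes (-1.32, edgeR adjusted p = 0.23), and in PLNR9C cardiomyocytes the call (-2.18 ± 0.60, edgeR adjusted p = 0.036) was lost without PLNR9C JQ1 replicate 2 (edgeR adjusted p = 0.1) or any PLNR9C vehicle library.

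Kcnj15, an inward rectifier, fell in all 6 comparisons in which it was tested. At 8 weeks it had 0.273, 0.323 and 0.518 CPM in PLNR9C JQ1 hearts and 1.88, 1.57 and 1.38 CPM in PLNR9C vehicle hearts (-2.15 ± 0.35, edgeR adjusted p = 0.0001). The wild type hearts had 0.213, 0.0890 and 0.133 CPM under JQ1 and 1.41, 1.55 and 1.79 CPM under vehicle (-3.43 ± 0.42, edgeR adjusted p = 5.7e-06). The values at 20 weeks were -2.48 ± 0.37 in PLNR9C and -3.20 ± 0.47 in wild type hearts. Kcnn4 fell with JQ1 in PLNR9C hearts, where its vehicle level was raised: at 20 weeks it had 0.245, 0.0695 and 0.264 CPM under JQ1 and 1.14, 0.872 and 1.07 CPM under vehicle (-2.4 ± 0.44, edgeR adjusted p = 0.00055). In PLNR9C non-myocytes Kcnn4 had 0.175, 1.72 and 0.428 CPM under JQ1 and 9.32, 3.27 and 4.07 CPM under vehicle (-2.86 ± 0.58, edgeR adjusted p = 0.0022). In wild type mice its JQ1 difference was not called in any kind of sample tested, at -0.64 at 8 weeks, -0.60 at 20 weeks and -0.98 in non-myocytes, and the difference between the genotypes did not pass the test. Kcne4 fell with JQ1 in PLNR9C hearts at 20 weeks, with 4.23, 3.54 and 3.62 CPM under JQ1 and 12.6, 12.6 and 8.90 CPM under vehicle (-1.58 ± 0.16, edgeR adjusted p = 2.3e-06). Wild type hearts had 2.07, 2.13 and 2.05 CPM of it under JQ1 and 3.07, 2.58 and 3.14 CPM under vehicle (-0.49, edgeR adjusted p = 0.073), and the interaction (-1.09, edgeR adjusted p = 0.081) missed the threshold. At 8 weeks Kcne4 fell with JQ1 in both genotypes. PLNR9C hearts of that age had 1.82, 1.47 and 2.42 CPM under JQ1 and 2.38, 4.81 and 3.65 CPM under vehicle. The wild type values were 1.75, 2.18 and 1.47 CPM under JQ1 and 3.52, 3.78 and 2.54 CPM under vehicle.

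The promoters of Kcnk2, Kcnn4, Kcnj15 and Kcne4 are shown because these 4 genes fell with JQ1; they were picked after their values were seen. Each window of 300 bases around the transcription start comes from RefSeq (build GRCm38.p6), is written 5′ to 3′ on the gene's strand, and has in capitals every match on either strand to the TATA box (TATAAA), the GC box (GGGCGG), the AP-1 site (TGACTCA) and the E-box (CACGTG), whose matches do not overlap here.
Kcnk2 chr1:189402224-189402523 (-): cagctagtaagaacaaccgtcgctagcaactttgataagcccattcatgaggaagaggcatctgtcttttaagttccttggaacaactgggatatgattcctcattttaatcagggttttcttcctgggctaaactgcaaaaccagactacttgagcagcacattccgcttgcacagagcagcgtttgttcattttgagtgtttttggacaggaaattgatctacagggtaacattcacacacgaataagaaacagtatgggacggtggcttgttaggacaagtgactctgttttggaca
Kcnn4 chr7:24370013-24370312 (+): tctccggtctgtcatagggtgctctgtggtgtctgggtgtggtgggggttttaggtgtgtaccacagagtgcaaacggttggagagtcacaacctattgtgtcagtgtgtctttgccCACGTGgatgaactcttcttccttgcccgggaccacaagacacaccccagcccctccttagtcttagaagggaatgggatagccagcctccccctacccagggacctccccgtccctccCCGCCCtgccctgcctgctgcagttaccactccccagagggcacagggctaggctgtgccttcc
Kcnj15 chr16:95257308-95257607 (+): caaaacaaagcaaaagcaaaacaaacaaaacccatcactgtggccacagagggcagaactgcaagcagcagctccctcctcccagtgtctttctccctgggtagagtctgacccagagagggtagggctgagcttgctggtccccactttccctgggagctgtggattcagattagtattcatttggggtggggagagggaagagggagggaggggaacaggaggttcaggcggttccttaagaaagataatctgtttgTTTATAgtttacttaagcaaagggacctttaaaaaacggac
Kcne4 chr1:78816661-78816960 (+): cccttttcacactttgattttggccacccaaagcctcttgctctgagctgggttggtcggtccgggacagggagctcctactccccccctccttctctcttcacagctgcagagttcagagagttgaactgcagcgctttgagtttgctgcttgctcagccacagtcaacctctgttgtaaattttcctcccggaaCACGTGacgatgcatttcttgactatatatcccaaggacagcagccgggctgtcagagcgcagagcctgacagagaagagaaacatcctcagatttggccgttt

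The Kcnk2 window printed, 1 of 4 in the table for that gene, held none of these motifs, Kcnn4 held CACGTG and, on the other strand, GGGCGG, and Kcne4 held CACGTG. Kcnj15 held TATAAA on the other strand only, 9 bases after the RefSeq transcription start and not before it. The RefSeq starts of Kcnk2 and Kcnn4 equal the deposited gene starts, and those of Kcnj15 and Kcne4 lie 93 and 38 bases from them. Windows were found for 46 of the 62 genes, 64 windows in all. TATAAA was in 3.13% of them and in 13.6% of all 32851 promoter windows, GGGCGG in 48.4% and 35.7%, TGACTCA in 3.13% and 5.20%, and CACGTG in 10.9% and 7.15%. The median GC content was 59.0% over the 64 windows and 52.7% over all windows.

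Kcnip2, Kcnd3, Kcnj11 and Kcnj5 fell with JQ1 in both genotypes at 8 weeks. Of their channel partners, Kcnj3 was called higher in wild type hearts (0.29, edgeR adjusted p = 0.039), and Kcnd2 and Kcnj8 were not called at that age. Kcnip2 had 71.5, 48.4 and 58.0 CPM in PLNR9C JQ1 hearts and 87.7, 85.2 and 101 CPM in PLNR9C vehicle hearts (-0.62 ± 0.11, edgeR adjusted p = 0.00081). In wild type hearts it had 66.5, 75.9 and 72.8 CPM under JQ1 and 115, 119 and 122 CPM under vehicle (-0.73 ± 0.11, edgeR adjusted p = 0.00024). Kcnd3, its pore partner, fell by 0.64 ± 0.10 in both genotypes. Kcnj11 had 127, 107 and 106 CPM in PLNR9C JQ1 hearts and 157, 157 and 175 CPM in PLNR9C vehicle hearts (-0.53 ± 0.07, edgeR adjusted p = 1.4e-05), and it fell by 0.60 ± 0.07 in wild type hearts. Kcnj5 fell by 0.51 ± 0.08 in PLNR9C and by 0.48 ± 0.08 in wild type hearts. At 20 weeks Kcnj11 again fell in both genotypes (-0.42 ± 0.08 and -0.49 ± 0.08 in PLNR9C and wild type hearts), as did Kcnd3 (-0.38 ± 0.12 and -0.53 ± 0.12). Kcnip2 was called with JQ1 in neither genotype at 20 weeks, and Kcnj5 in wild type hearts alone. Genes that rose at 8 weeks in both genotypes were Kcnn2, a small-conductance calcium-activated channel (0.45 ± 0.12 in PLNR9C and 0.53 ± 0.12 in wild type hearts), and Kcnq1 (0.25 ± 0.07 and 0.31 ± 0.07). Neither Kcnn2 nor Kcnq1 was called with JQ1 at 20 weeks. Kcnv2 fell with JQ1 in both genotypes at 8 weeks: it had 13.2, 6.32 and 6.04 CPM in PLNR9C JQ1 hearts and 16.3, 16.3 and 26.8 CPM in PLNR9C vehicle hearts (-1.2 ± 0.31, edgeR adjusted p = 0.017). In wild type hearts Kcnv2 had 18.3, 22.2 and 18.6 CPM under JQ1 and 45.0, 41.3 and 37.7 CPM under vehicle (-1.07 ± 0.28, edgeR adjusted p = 0.02). Both Kcnv2 calls at 8 weeks were lost in some alternatives (edgeR adjusted p up to 0.089 and 0.065). The cardiomyocyte markers at 8 weeks summed to 69863 to 77769 CPM in PLNR9C JQ1 and 58705 to 63916 CPM in PLNR9C vehicle hearts. Their sums in wild type hearts were 82418 to 86590 CPM under JQ1 and 73509 to 77976 CPM under vehicle. The part of these shifts in the JQ1 values was not tested.

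**Figure D4:**
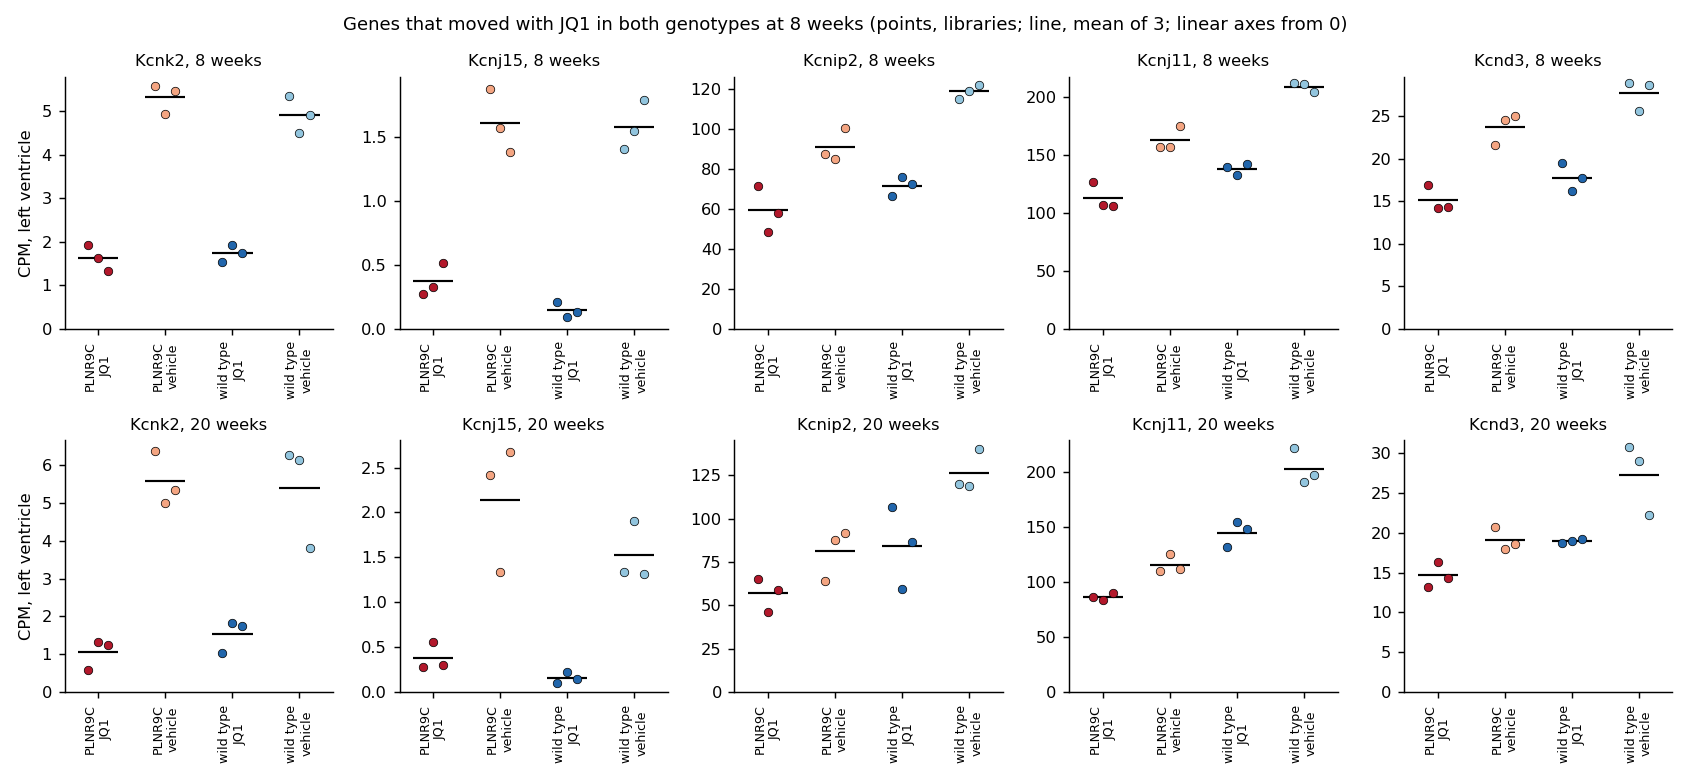
CPM of 5 genes in every left ventricle library (points) with group means (lines) at 8 weeks (top) and 20 weeks (bottom), for PLNR9C JQ1, PLNR9C vehicle, wild type JQ1 and wild type vehicle hearts. All 5 genes lie lower in JQ1 than in vehicle hearts at 8 weeks, and Kcnip2 groups overlap at 20 weeks in PLNR9C hearts.

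At 20 weeks some of the genes that were low in the PLNR9C ventricle were higher with JQ1. The genotype and JQ1 comparisons share the PLNR9C vehicle libraries, so their values are given side by side only. Kcnj3 had 13.6, 10.2 and 9.95 CPM in PLNR9C JQ1 hearts and 4.96, 5.6 and 4.57 CPM in PLNR9C vehicle hearts (1.16 ± 0.16, edgeR adjusted p = 6.2e-05), beside a genotype difference of -2.25. The 4 atrial markers were uneven under JQ1, with sums of 4.86, 1.11 and 1.66 CPM in PLNR9C JQ1 hearts. Wild type JQ1 hearts had 1.24, 6.89 and 0.976 CPM of them, and PLNR9C vehicle hearts had 1.37, 1.56 and 1.75 CPM. The part of atrial RNA in the Kcnj3 values was not tested. Kcnd2 had 33.4, 31.0 and 29.8 CPM in PLNR9C JQ1 hearts and 16.2, 22.7 and 21.2 CPM in PLNR9C vehicle hearts (0.65 ± 0.13, edgeR adjusted p = 0.0013), beside -1.05. Kcnj2 had 49.0, 42.5 and 39.4 CPM in PLNR9C JQ1 hearts and 24.8, 30.8 and 27 CPM in PLNR9C vehicle hearts (0.67 ± 0.13, edgeR adjusted p = 0.0015), beside -1.22. JQ1 and vehicle libraries did not overlap for any of the 3 genes. In wild type hearts the JQ1 differences were 0.47 ± 0.14 for Kcnj3, 0.01 for Kcnd2 (edgeR adjusted p = 0.95) and 0.50 ± 0.13 for Kcnj2, and the test of the difference between the genotypes passed for none of the 3. Of the repolarising current genes 5 of 17 rose and 2 fell with JQ1 in PLNR9C hearts, where 15.9% of all genes rose and 16.1% fell, the fifth riser being Kcnj8 (0.36 ± 0.13, edgeR adjusted p = 0.037, lost without any 1 of 4 libraries). Over the same libraries 6 of 8 cardiomyocyte markers rose (median 0.56), with sums of 53072 to 57596 CPM in PLNR9C JQ1 hearts and 40207 to 45443 CPM in PLNR9C vehicle hearts, and the part of that shift was not tested. Their sums in wild type hearts at 20 weeks were 90938 to 100679 CPM under JQ1 and 73771 to 84943 CPM under vehicle, and that part was not tested either.

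Several genes that were high in the PLNR9C ventricle at 20 weeks fell with JQ1. Kcnj14 had 1.26, 1.88 and 1.51 CPM in PLNR9C JQ1 hearts and 5.6, 6.56 and 8.85 CPM in PLNR9C vehicle hearts (-2.17 ± 0.23, edgeR adjusted p = 3.4e-06), and in wild type hearts it fell as well (-1.14 ± 0.33, edgeR adjusted p = 0.016). Kcnj6 had 2.45, 5.77 and 3.65 CPM in PLNR9C JQ1 hearts and 7.04, 7.02 and 10.2 CPM in PLNR9C vehicle hearts (-1.03 ± 0.33, edgeR adjusted p = 0.027). Kcnma1 had 0.454, 0.382 and 0.377 CPM in PLNR9C JQ1 hearts and 1.24, 1.51 and 0.632 CPM in PLNR9C vehicle hearts (-1.48 ± 0.46, edgeR adjusted p = 0.021). The calls of Kcnj6 and Kcnma1 were lost without single libraries (edgeR adjusted p up to 0.1 for each), and that of Kcnj14 held. Kcnmb1, the smooth muscle partner of Kcnma1, fell in both genotypes (-1.53 ± 0.38 in PLNR9C and -1.49 ± 0.38 in wild type hearts), as did Kcnj4 (-1.11 ± 0.33 and -1.0 ± 0.33) and Kcna2 (-0.96 ± 0.23 and -0.66 ± 0.23). Other genes of low level rose with JQ1 in PLNR9C hearts, namely Kcnab3 (2.07 ± 0.52, edgeR adjusted p = 0.0053) and Kcnk5 (1.30 ± 0.44, edgeR adjusted p = 0.03). Genes with a call in wild type but not in PLNR9C hearts included Kcnt1 (-1.04 ± 0.28), Kcnk13 (-1.36 ± 0.49), Kcnj5 (-0.44 ± 0.14), Kcnh2 (-0.32 ± 0.11), Kcng2 (0.26 ± 0.08) and Kcnq5 (0.86 ± 0.29), and for none of them did the effect differ between the genotypes with a call.

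Kcnv2 was the 1 gene of 58 whose JQ1 effect differed between the genotypes at 20 weeks (interaction 1.65 ± 0.25, edgeR adjusted p = 0.016), where 0.357% of all genes tested were called (0.150% higher and 0.207% lower). In PLNR9C hearts it had 3.5, 2.57 and 4.07 CPM under JQ1 and 2.25, 1.65 and 1.70 CPM under vehicle (0.83 ± 0.21, edgeR adjusted p = 0.0066). Wild type hearts had 29.9, 23.5 and 30.1 CPM under JQ1 and 53.6, 52.7 and 40.7 CPM under vehicle (-0.82 ± 0.14, edgeR adjusted p = 0.00045). JQ1 and vehicle libraries were apart in both genotypes, in opposite directions, while the PLNR9C JQ1 level stayed far under every wild type level. In PLNR9C non-myocytes Kcnv2 fell to 0.263, 0.507 and 0.321 CPM under JQ1, against 1.13, 1.09 and 1.89 CPM under vehicle (-1.89 ± 0.48, edgeR adjusted p = 0.0076). These values rest on 3, 5 and 3 reads under JQ1 and 13, 12 and 20 reads under vehicle. In cardiomyocytes the JQ1 differences of -1.13 in PLNR9C and -0.45 in wild type pools were not called. Without PLNR9C JQ1 replicate 1 the interaction no longer passed (edgeR adjusted p = 0.066). At 8 weeks the interaction was called for none of 54 genes, with 3 at an unadjusted p under 0.05, where 0.00645% of all genes were called. In cardiomyocytes it was called for none of 43 genes (3 unadjusted) and in non-myocytes for none of 49 (10 unadjusted), where 0% of all genes were called. DESeq2 called 3 genes in non-myocytes.

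**Figure D5:**
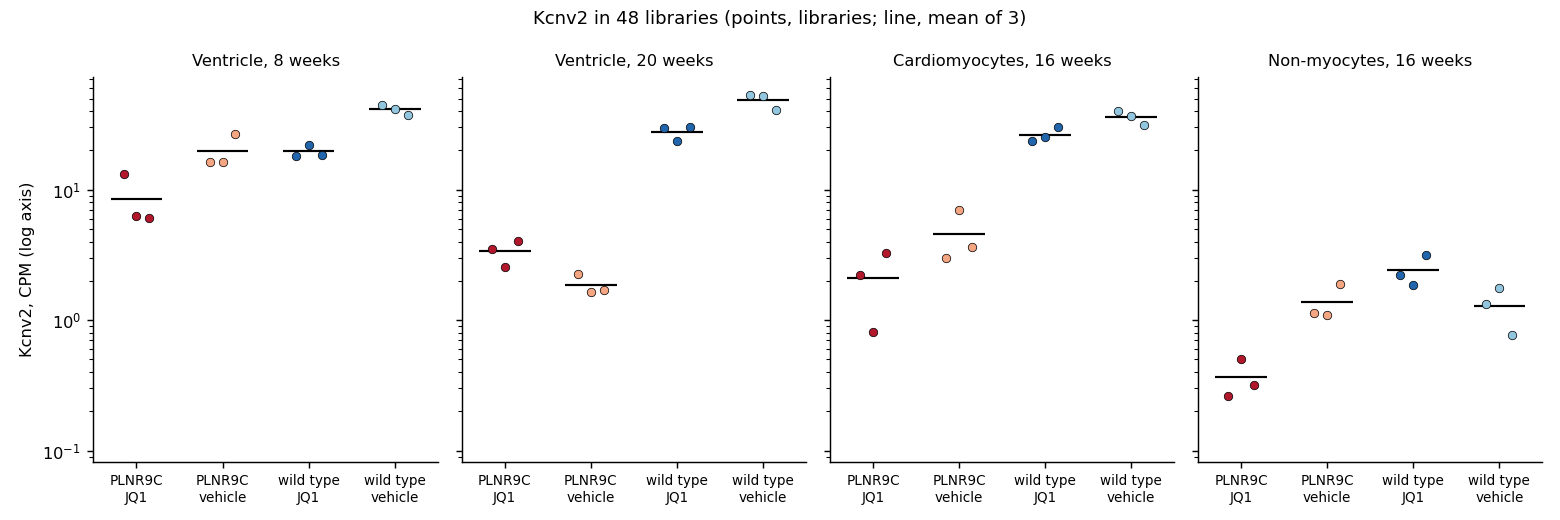
Kcnv2 in CPM on a log axis in all 48 libraries (points) with group means (lines), by kind of sample and, within each, PLNR9C JQ1, PLNR9C vehicle, wild type JQ1 and wild type vehicle. PLNR9C libraries lie from 1.65 to 4.07 CPM and wild type libraries from 23.5 to 53.6 CPM in the 20-week ventricle, whereas at 8 weeks the PLNR9C vehicle and wild type JQ1 libraries share a range.

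Under JQ1 the genotypes still differed at 20 weeks. Of 58 genes 10 rose and 18 fell in PLNR9C JQ1 against wild type JQ1 hearts, where 39.1% of all genes tested were called (20.8% higher and 18.3% lower), and 13 of 17 repolarising current genes fell with a median of -0.62. In the same hearts 7 of 8 cardiomyocyte markers were lower (median -0.66), 6 of 6 fibroblast markers (1.5) and 6 of 6 tested macrophage markers (1.94) were higher, and their part was not tested. The largest falls among genes with at least 1 CPM were those of Kcnv2 (-3.04 ± 0.17, edgeR adjusted p = 1.2e-09), Kcnj3 (-1.56 ± 0.15), Kcna1 (-1.15 ± 0.27) and Kcnj2 (-1.06 ± 0.13), followed by Kcnj11 (-0.74 ± 0.08), Kcnj12 (-0.74 ± 0.13), Kcnk3 (-0.73 ± 0.09), Kcnh2 (-0.69 ± 0.11), Kcnq1 (-0.63 ± 0.11) and Kcnj5 (-0.58 ± 0.14). Kcnk3, for example, had 416, 362 and 312 CPM in PLNR9C JQ1 hearts and 622, 641 and 550 CPM in wild type JQ1 hearts. The risers were Kcnk13 (2.65 ± 0.43, edgeR adjusted p = 9.1e-05), Kcnj6 (1.79 ± 0.40), Kcnj14 (1.49 ± 0.31), Kcnd1 (1.49 ± 0.38), Kcnab2 (1.41 ± 0.24), Kcnn3 (1.11 ± 0.29), Kcnt2 (1.11 ± 0.24), Kcnab1 (0.97 ± 0.33), Kcne4 (0.86 ± 0.19) and Kcnk6 (0.71 ± 0.14). At 8 weeks 2 of 54 genes rose and 3 fell between JQ1 mice of the 2 genotypes, where 5.96% of all genes tested were called (3.43% higher and 2.54% lower): Kcnq5 (0.95 ± 0.26), Kcnab2 (0.83 ± 0.23), Kcnj3 (-0.54 ± 0.10), Kcnj11 (-0.29 ± 0.07) and Kcnk3 (-0.27 ± 0.08). All 5 were called in the same direction in vehicle mice, in libraries not shared with these, and without PLNR9C JQ1 replicate 2 or 3 or any wild type JQ1 library the count at 8 weeks was 1 or 2. Calls shared by vehicle and JQ1 mice were not counted over all genes.

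In the fractions JQ1 gave different counts. In PLNR9C cardiomyocytes 2 of 43 genes rose, Kcnk5 (2.07 ± 0.53) among them, and 4 fell, Kcnk2, Kcnj14 (-1.59 ± 0.45), Kcnip2 (-0.93 ± 0.15) and Kcnj5 (-0.70 ± 0.19), where 10.5% of all genes tested were called (6.14% higher and 4.33% lower). Kcnip2 had 43.8, 36.5 and 45.2 CPM in PLNR9C JQ1 cardiomyocytes and 72.1, 94.2 and 72.3 CPM in PLNR9C vehicle cardiomyocytes (edgeR adjusted p = 0.0045), without overlap. None of the 6 calls held in every alternative, and that of Kcnip2 was lost when the 2 groups alone were fitted (edgeR adjusted p = 0.053). The count of 6 was 2 without PLNR9C JQ1 replicate 2, the library that stood apart, or without PLNR9C vehicle replicate 1, and 3 without PLNR9C JQ1 replicate 3 or PLNR9C vehicle replicate 2. In wild type cardiomyocytes 1 of 43 genes was called, where 3.63% of all genes tested were called (1.70% higher and 1.93% lower). Between PLNR9C JQ1 and wild type JQ1 cardiomyocytes 4 of 43 genes rose and 13 fell, where 25.9% of all genes tested were called (13.6% higher and 12.3% lower). They were led by Kcnv2 (-3.65 ± 0.38), Kcnj3 (-2.13 ± 0.24), Kcnd2 (-1.49 ± 0.23), Kcnj2 (-1.11 ± 0.35), Kcnd3 (-1.03 ± 0.32), Kcnip2 (-1.0 ± 0.15), Kcnj5 (-0.88 ± 0.19), Kcnh2 (-0.83 ± 0.25), Kcnj11 (-0.81 ± 0.13) and Kcnk3 (-0.76 ± 0.18) at the low end, and by Kcnk13 (3.73 ± 0.67), Kcnab2 (2.4 ± 0.49), Kcnn3 (1.48 ± 0.51) and Kcnj6 (1.30 ± 0.38) at the high end. Kcnk13 and Kcnab2 reached 10 reads in PLNR9C cardiomyocyte libraries only, so they passed the filter through the genotype where they are high. In wild type JQ1 cardiomyocytes Kcnk13 had 0, 1 and 1 reads and Kcnab2 had 2, 4 and 7 reads. In the same pools 5 of 8 cardiomyocyte markers were lower (median -0.63), 5 of 6 fibroblast markers (1.88), 6 of 6 tested macrophage markers (2.92) and 3 of 8 smooth muscle and pericyte markers (0.86) were higher, and their part was not tested. Without PLNR9C JQ1 replicate 2 that count of 17 was 12, and without wild type JQ1 replicate 3 it was 11.

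In PLNR9C non-myocytes 4 of 49 genes rose with JQ1 and 10 fell, where 36.2% of all genes tested were called (16.7% higher and 19.5% lower). Among the risers were Kcnrg, a regulator that hinders the assembly of Kv channels (1.42 ± 0.27), Kcnk5 (1.11 ± 0.25) and Kcnj2 (0.72 ± 0.22). Beside Kcnn4, Kcnk2 and Kcnv2 the genes that fell were Kcnj15 (-1.90 ± 0.40), Kcnj10 (-1.79 ± 0.37), Kcnh2 (-0.96 ± 0.27), Kcne4 (-0.86 ± 0.18), Kcnn1 (-0.79 ± 0.20), Kcng2 (-0.60 ± 0.22) and Kcnk6 (-0.55 ± 0.14). Of these, Kcnh2, Kcng2, Kcnn1 and Kcnv2 were higher in the cardiomyocyte fraction. The cardiomyocyte markers summed to 4433, 1297 and 1549 CPM in PLNR9C JQ1 and 1847, 2432 and 2116 CPM in PLNR9C vehicle non-myocytes. These sums overlapped, and their part was not tested. In wild type non-myocytes 8 rose and 11 fell, where 38.0% of all genes tested were called (18.0% higher and 20.0% lower). Among the risers were Kcnip4 (1.5 ± 0.40) and, with levels in the cardiomyocyte fraction far above these, Kcng2 (1.19 ± 0.20), Kcnd2 (1.12 ± 0.38) and Kcnk3 (1.07 ± 0.24). Kcng2, for example, had 22.5, 15.5 and 21.8 CPM in wild type JQ1 and 8.52, 9.99 and 7.81 CPM in wild type vehicle non-myocytes. In the same pools 6 of 8 cardiomyocyte markers rose (median 1.65), and their part in these values was not tested. Among the genes that fell most in wild type non-myocytes were Kcnk2, Kcnj10 (-1.73 ± 0.53), Kcnj15 (-1.48 ± 0.42), Kcng4 (-1.43 ± 0.53), Kcnn1 (-1.27 ± 0.20), Kcnk13 (-1.2 ± 0.36), Kcnmb1 (-1.17 ± 0.24), Kcnd1 (-1.07 ± 0.23), and Kcna2 (-0.91 ± 0.25). Between PLNR9C JQ1 and wild type JQ1 non-myocytes 5 of 49 genes rose and 21 fell, where 18.6% of all genes tested were called (9.24% higher and 9.38% lower). Among them were Kcnv2 (-2.71 ± 0.45), Kcnip2 (-2.35 ± 0.41), Kcnj11 (-2.29 ± 0.32), Kcna7 (-2.01 ± 0.41), Kcnk3 (-1.94 ± 0.25), Kcnj5 (-1.92 ± 0.45), Kcnh2 (-1.86 ± 0.26), Kcng2 (-1.78 ± 0.21), Kcnj12 (-1.71 ± 0.36) and Kcnd2 (-1.65 ± 0.41), and the risers Kcna3 (1.96 ± 0.46), Kcnk13 (1.80 ± 0.35), Kcnab2 (1.08 ± 0.20), Kcnd1 (0.85 ± 0.24) and Kcnn3 (0.62 ± 0.15). The cardiomyocyte markers in these pools summed to 1297 to 4433 CPM in PLNR9C JQ1 and 7489 to 9463 CPM in wild type JQ1 non-myocytes, with 7 of 8 called lower (median -1.84), and their part was not tested.

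Genes outside the Kcn symbols that act with these channels were described from a list of 17 partners, 13 of which were tested in the ventricle. At 20 weeks none rose and 9 fell in PLNR9C vehicle against wild type vehicle hearts, with a median of -0.37, where 44.7% of all genes tested were called and 21.4% were lower. Abcc9, the sulfonylurea receptor that joins Kcnj11 and Kcnj8 in ATP-sensitive channels, had 262, 287 and 301 CPM in PLNR9C vehicle hearts and 771, 819 and 700 CPM in wild type vehicle hearts (-1.43 ± 0.10, edgeR adjusted p = 4.1e-09). Its genotype difference changed by -1.11 ± 0.13, 20 weeks minus 8 weeks, and it was -0.88 ± 0.12 in cardiomyocytes and -1.10 ± 0.12 in non-myocytes. The other receptor, Abcc8, fell by 0.33 ± 0.09 on the log2 scale (edgeR adjusted p = 0.0055). Klf15, a transcription factor known to control Kcnip2, fell by 1.15 ± 0.21 (edgeR adjusted p = 0.0013), and Lrrc52, an auxiliary subunit of calcium-activated channels, by 2.07 ± 0.35 (edgeR adjusted p = 0.0001). With JQ1, Lrrc55, of the same auxiliary family, fell by 3.09 ± 0.25 in PLNR9C and 3.94 ± 0.26 in wild type hearts at 8 weeks. The ventricular transcription factors moved in opposite directions under JQ1 at 8 weeks: Irx5 rose by 1.18 ± 0.19 in PLNR9C and 0.71 ± 0.20 in wild type hearts, and Irx4 fell by 0.80 ± 0.08 and 0.92 ± 0.08. At 20 weeks Irx5 rose by 0.73 ± 0.17 in PLNR9C and 0.92 ± 0.17 in wild type hearts, and Irx4 fell by 0.37 ± 0.09 and 0.55 ± 0.10.

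Summed over all Kcn genes and scaled by each library's total gene reads, without the TMM factor, CPM at 20 weeks averaged 1301 in PLNR9C JQ1, 1359 in PLNR9C vehicle, 1628 in wild type JQ1 and 1769 in wild type vehicle hearts. PLNR9C vehicle libraries (1346 to 1374) did not overlap with wild type vehicle libraries (1727 to 1846). Genes with many reads, such as Kcnk3, weigh most in such a sum. The totals include mitochondrial reads, at 7.71, 9.55 and 8.45% in PLNR9C vehicle and 13.8, 14.3 and 14.2% in wild type vehicle hearts. Their part in the sums, and that of the cardiomyocyte marker shift, was not tested. The number of genes over 1 RPKM ran the other way between the genotypes, with 30 in PLNR9C vehicle and 25 in wild type vehicle hearts, and 26 in PLNR9C JQ1 and 22 in wild type JQ1 hearts.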

How the data were processed

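Bulk RNA-seq was measured in 48 libraries. The authors deposited read counts per gene and RPKM in 3 tables (8-week ventricle, 20-week ventricle, pooled cells). Reads were aligned with STAR 2.4.1b to GRCm38 (mm10), per the submitters' processing notes. The counting tool, its annotation and its use of strand are not stated in the material used here. That the second deposited value is RPKM was checked against the counts.

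The whole tables were fitted with edgeR 4.0.16 (limma 3.58.1, R 4.3.3): filterByExpr, TMM, glmQLFit and glmQLFTest within each kind of sample, and Benjamini-Hochberg adjustment over all genes tested. The fractions, and the 2 ages, were fitted jointly for differences between them. DESeq2 1.42.0, other scalings and filters, blocks, 2-group fits and leaving out each library were alternatives. The fits were tested on simulated counts with known changes. The Kcn genes and the lists were chosen with earlier results of these data known. Genes named are up to 10 risen and 10 fallen per comparison with the largest change and at least 1 CPM in the higher group, plus the repolarising current list, Kcnma1, Kcnn4 and up to 4 partners; others are named for context after their values were seen, and the results of some genes are not reported here. The Kcng2 and Kcnn2 promoters are not shown.

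Replicate numbers did not pair groups. Cardiomyocyte and non-myocyte pools of the same condition and number did deviate together from their group means (12 of 12 pairs, r 0.128 to 0.320), so the pairs were taken as a block in an added alternative. Nothing but the labels says that replicates are separate animals or pools, and p-values measure the spread between these samples.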

Additional observations from a re-analysis of the deposited data

Results flagged for a closer look

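The results below stood out because a direct test found that an effect differed between 2 groups of samples, by edgeR's quasi-likelihood test with Benjamini-Hochberg adjustment over all genes.

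The JQ1 effect on Kcnv2 at 20 weeks differed between PLNR9C and wild type hearts by 1.65 on the log2 scale. The genotype effect on Kcnv2 differed between cardiomyocytes and non-myocytes by -3.09, with at most 21 reads of Kcnv2 in any vehicle non-myocyte library.

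The genotype effect differed between 20 and 8 weeks in 16 genes. It was lower at 20 weeks for 12 genes, among them Kcnv2 (-3.61), Kcnc4 (-3.21), Kcnj3 (-1.73), Kcnt1 (-1.19), Kcnd2 (-1.16), Kcnj2 (-1.14), Kcnj5 (-0.91), Kcnj8 (-0.74), Kcnq1 (-0.57), Kcnh2 (-0.56) and Kcnj11 (-0.44). It was higher at 20 weeks for Kcne4 (1.84), Kcnj14 (3.31), Kcnma1 (3.77) and Kcnj6 (4.32). Neither Kcnma1 nor Kcnj6 had 10 reads in 3 libraries at 8 weeks, and at 20 weeks Kcnma1 reached 10 reads in PLNR9C libraries only. The ages are separate tables, so age and any difference in handling between the tables cannot be told apart.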

How the results depend on the processing

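Of 347 calls, 235 held in every alternative and 112 were lost in at least 1; none turned round. Counts of called genes that moved by over 1.5 times were these. The interaction at 20 weeks (1 gene) was 3 with DESeq2 and 2 with the replicate number as a block. JQ1 in PLNR9C cardiomyocytes (6) was 0 when those 2 groups alone were fitted. JQ1 in wild type cardiomyocytes (1) was 2 with DESeq2 and 3 with the 2 groups alone. The interaction in non-myocytes (0) was 3 with DESeq2 and 1 without a filter. The genotype difference between the fractions (1) was 2 with DESeq2 and 2 with the pair of fractions as a block. The cause was not tested. Apart from these, the replicate block left every count within 1.5 times. The numbers do not pair the genotypes or treatments: a library deviated most like one of its own number in 4 of 12 cases at 8 weeks, 6 of 12 at 20 weeks, 5 of 12 in cardiomyocytes and 4 of 12 in non-myocytes. Over single genes the block lost 13 calls, among them the 8-week genotype call of Kcnv2 (edgeR adjusted p = 0.072), and added 6.

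With 1 library left out at a time, the count ran from 6 to 11 for genotype at 8 weeks, 1 to 5 for genotype under JQ1 at 8 weeks, 13 to 21 for JQ1 in wild type hearts at 20 weeks, 0 to 2 for the interaction at 20 weeks, 2 to 9 and 0 to 1 for JQ1 in PLNR9C and wild type cardiomyocytes, 11 to 23 for genotype under JQ1 in cardiomyocytes, 0 to 3 for the interaction in non-myocytes and 1 to 3 for the genotype difference between the fractions. The low count for JQ1 in wild type hearts at 20 weeks came without wild type JQ1 replicate 2, and that of 3 in the non-myocyte interaction without PLNR9C JQ1 replicate 1. The 1 call for JQ1 in wild type cardiomyocytes was lost without wild type JQ1 replicate 3 or wild type vehicle replicate 1 or 2. With 3 samples a group, genes of low counts are the least certain.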
